A study of Arabidopsis thaliana with 6 samples.

Results

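The comparison described here set cotyledons of Arabidopsis thaliana cultured for 24 h with sucrose against cotyledons cultured for 24 h with glucose, in a tissue culture system called VISUAL. All 6 arrays of the series came from wild-type seedlings 6 days old, in MS liquid medium under continuous light. The induction medium held 2,4-D (an auxin), kinetin (a cytokinin), bikinin (an inhibitor of GSK3-like kinases, which restrain brassinosteroid signalling) and either sugar at 5%. Each sugar was sampled at 0, 24 and 48 h by the sample titles, with 1 array a group, so no value has a replicate error and no p-value was computed; precision is limited by how few arrays there are. A time tag in the labels contradicted the titles of 5 arrays; of the 24 h pair, it gave 34 h for glucose and 72 h for sucrose, and of the 0 h pair, 0 h for glucose and 72 h for sucrose. Titles were used throughout, so a difference of sugar and a difference of time between the pair of 24 h arrays cannot be told apart from the labels alone. The labels name whole cotyledons and do not say how many were pooled, nor whether the arrays came from separate cultures.

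The members were chosen by level and not by difference: probe sets assigned to exactly 1 gene whose deposited log2 signal was 6 or more on at least 1 of the pair of 24 h arrays. They were 7786 of 16722 probe sets with 1 gene (46.6%), from 7707 genes, and 6915 of them reached 6 on both 24 h arrays. Just inside the limit lay AT1G14340, at 5.10 in glucose and 6.00 in sucrose, and AT1G62130, at 6.00 and 5.86. Just outside lay AT5G07890, at 6.00 (5.9999 before rounding) and 5.89, and AT1G65120, at 6.00 (5.9996) and 5.44. Every difference below is sucrose minus glucose on the log2 scale, after the median of the 1-gene probe sets was subtracted from each array, so it is relative to the typical gene. Those medians were 5.45 on both 24 h arrays. A level is a deposited log2 signal of 1 probe set, and levels of different genes are not compared.

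In VISUAL, hormones in the medium drive leaf cells, most of them mesophyll, to lose their leaf identity, divide, pass through a procambium-like state and become xylem or phloem cells. Sugars feed these cells and also act as signals: sucrose is moved across membranes by SWEET and other carriers and split into hexoses, while glucose enters metabolism directly through hexokinase. Photosynthesis genes are a textbook target of repression by sugar, and the late anthocyanin enzymes are a textbook target of induction by sucrose. Cell division is marked by kinases and motor proteins of mitosis, and wall growth by expansins and endoglucanases that loosen or remodel cellulose and xyloglucan.

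At 24 h, sucrose cotyledons had lower signal of photosynthesis genes, of 5 of 6 measured division genes and of 4 expansins. They had higher signal of late anthocyanin genes and of SWEET11 and SWEET13. SWEET13 was already 1.31 and SWEET11 0.62 apart at 0 h. With the 0 h difference subtracted, neither was 2-fold apart and fewer division genes were 2-fold lower. Of the 7786 members, 404 (5.19%) were at least 2-fold higher in sucrose and 310 (3.98%) at least 2-fold lower. At least 4-fold higher were 88 members and at least 4-fold lower 37, and 18 and 4 were past 8-fold. At the edge of the higher calls, AT1G28600 was just inside (6.84 in glucose and 7.84 in sucrose) and AT5G19880 just outside (5.27 and 6.27). At the edge of the lower calls, AT1G29980 was just inside (8.03 and 7.02) and AT4G02530 just outside (8.09 and 7.09).

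The pair of arrays titled 0 h served as a gauge of what separates arrays of the same stage, with the doubt that the time tag puts on the sucrose array of that pair too. Among probe sets at 6 or more on a 0 h array, 3.99% (290 of 7276) were at least 2-fold higher in the sucrose-labelled array and 1.28% (93) lower. Over the 24 h members themselves the 0 h shares were 3.35% higher (261) and 0.771% lower (60). The robust spread of the difference (the scaled median absolute deviation) was 0.366 at 24 h, 0.390 at 0 h and 0.525 at 48 h, so the bulk of genes lay no further apart at 24 h than at 0 h, and the 24 h pair was the wider beyond 2-fold. The 5.19% of higher calls lay close to the 3.99% of the 0 h pair, whereas the 3.98% of lower calls was above its 1.28%. Over the 24 h members the centred 0 h difference was itself shifted, with a median of 0.09 and 59.5% above 0. The 24 h median was 0.00. The part of this shift in the 0 h shares was not tested. Spread depended on level: the robust spread at 24 h was 0.535 in the 1947 members of lowest mean 24 h signal and 0.244 in the 1947 of highest. The array's 23 background probe sets differed between the sugars by a median of -0.13 at 24 h, against -0.53 at 0 h and -0.57 at 48 h, and their part in the results was not tested.

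**Figure D1:**
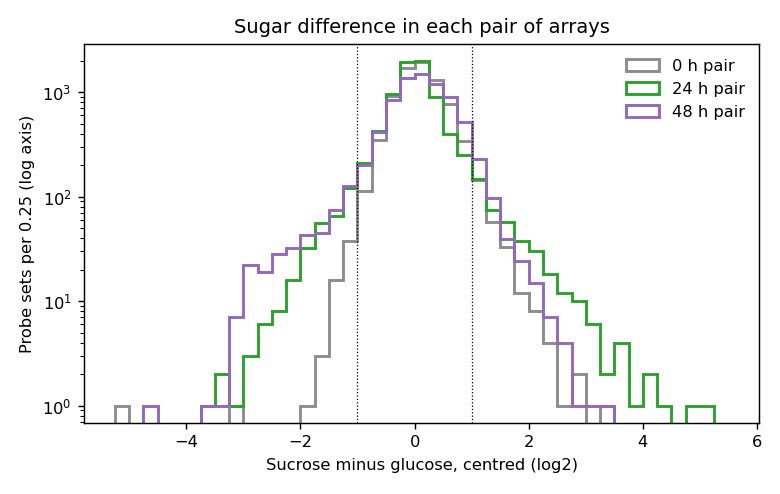
Number of member probe sets (log axis) by sucrose minus glucose difference (log2, centred, in steps of 0.25) for the 0 h, 24 h and 48 h pairs, 1 array a side; dotted lines mark 2-fold. The centres of the 0 h and 24 h curves lie over each other (robust spread 0.390 and 0.366), and beyond 2-fold the 24 h curve is the wider, with 310 members lower against 60 at 0 h.

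The 0 h and 48 h arrays were not used to form the 24 h difference, so the called members could be read on them. Of the 404 higher calls, 123 (30.4%) were also at least 2-fold higher in sucrose at 48 h, against 5.36% of all members, and 12 were 2-fold lower. Of the 310 lower calls, 79 (25.5%) were also at least 2-fold lower at 48 h, against 5.14% of all members, and 13 were 2-fold higher. The sign was kept at 48 h by 328 of the higher calls (81.2%), where 58.5% of all members were above 0. It was kept by 187 of the lower calls (60.3%), where 41.5% of all members were below 0. Part of the higher group was already apart before culture: 66 of the 404 (16.3%) were at least 2-fold higher in the sucrose-labelled array at 0 h, against 3.35% of all members. Only 9 of the 310 lower calls (2.9%) were 2-fold lower at 0 h, against 0.771%. Over all 1-gene probe sets that reached 6 in the 48 h pair, 5.29% (417 of 7885) were higher and 8.7% (686) lower in sucrose.

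The shares of probe sets that changed over the culture also differed between the called and all members. Of the 310 genes' probe sets lower in sucrose at 24 h, 65.2% (202) were at least 2-fold higher at 48 h than at 0 h in glucose and 62.3% (193) in sucrose, against 25.3% and 27.1% of all members. Their median level was 5.62 and 5.68 at 0 h in glucose and sucrose, 7.66 and 6.21 at 24 h, then 8.05 and 7.90 at 48 h. Most of the lower group thus had more signal at 48 h than at 0 h in both sugars, while its 24 h medians follow from how the group was chosen, as do those of the higher group. Of the 404 higher calls, 50.7% (205) were at least 2-fold lower at 48 h than at 0 h in glucose and 45.5% (184) in sucrose, against 17.4% and 18.8% of all members. Their median level was 6.48 and 6.95 at 0 h, 6.28 and 7.98 at 24 h, then 5.71 and 6.57 at 48 h. The reading over the culture was chosen after the data had been seen, and it is a count with no test. All members had 0 h medians of 7.29 in glucose and 7.42 in sucrose. Of the 310 lower calls, 203 were among the 2595 members lowest at 0 h. A member under 6 at 0 h had to reach 6 on a 24 h array, and the shares were not matched for 0 h level. How much of the contrast follows from that was not tested.

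**Figure D2:**
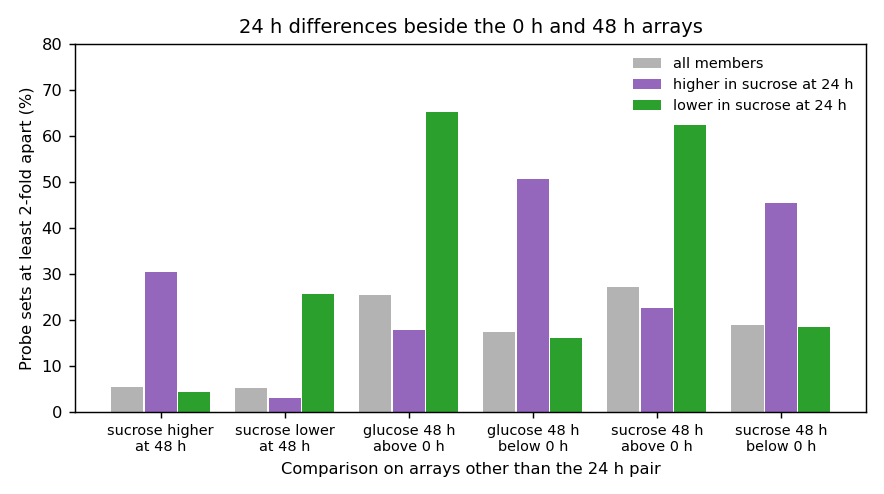
Percent of member probe sets at least 2-fold apart (vertical axis) in 6 comparisons made on the 0 h and 48 h arrays alone: grey bars for all 7786 members, purple for the 404 higher and green for the 310 lower in sucrose at 24 h. Among the lower group, 65.2% were at least 2-fold above their 0 h level at 48 h in glucose, and among the higher group 50.7% were as far below it. The groups were not matched for 0 h level.

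Photosynthesis genes were lower in sucrose. Of 67 loci in the list, 14 had a 1-gene probe set and 10 were members. All 10 members were below 0, and 7 of 10 were at least 2-fold lower, against 3.98% of all members. Their median difference was -1.32, where that of all members was 0.00. PSAE-1, a subunit of photosystem I, read 11.65 in glucose and 11.64 in sucrose at 0 h, 8.76 and 6.86 at 24 h, then 7.41 and 6.04 at 48 h, a 24 h difference of -1.89. PSBW, a small subunit of photosystem II, read 12.37 and 12.23, then 9.68 and 7.91, then 9.24 and 7.86 (-1.76 at 24 h). Both were alike on the 0 h arrays and lower in sucrose on both later pairs. The photosystem I subunit PSAN went from 10.86 and 10.60 at 0 h to 6.31 and 4.79 at 24 h (-1.51), and the antenna protein LHCB4.1 from 10.04 and 9.61 to 7.44 and 5.94 (-1.49). RCA, the activase of the carbon-fixing enzyme Rubisco, read 8.78 in glucose and 7.40 in sucrose at 24 h (-1.38), with 11.52 and 11.73 at 0 h. PSB27, a photosystem II assembly factor, differed by -1.26 and the antenna gene LHB1B2 by -1.24. The remaining 3, NdhL of the chloroplast NDH complex (-0.93), PSBY of photosystem II (-0.91) and the Calvin cycle enzyme SBPASE (-0.72), were lower by less than 2-fold. Of the list genes under the level limit, PRK differed by -1.26, LHCB4.2 by -1.04, NdhN by -0.35 and LHCB4.3 by 0.13.

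At 0 h the same 10 genes had a median difference of -0.18 and none reached 2-fold. At 48 h the median was -1.05 and 5 of 10 were at least 2-fold lower in sucrose. All 10 were at least 2-fold lower at 48 h than at 0 h in both sugars, unlike most of the lower group. CHLM, a methyltransferase of chlorophyll synthesis and the single member of its list, read 9.73 and 9.35 at 0 h, 7.05 and 5.43 at 24 h (-1.62), then 7.35 and 6.55 at 48 h. PORB, of the same list but under the level limit, read 10.72 and 9.98 at 0 h, then 5.57 and 5.09 at 24 h (-0.47). The photosynthesis list also marks mesophyll cells, and in whole-cotyledon RNA fewer cells of a type and less RNA per cell cannot be told apart. Over the 14 list genes with a 1-gene probe set, the summed linear signal was 25869 in glucose and 23991 in sucrose at 0 h, 3001 and 1157 at 24 h, then 2111 and 1068 at 48 h. Of 5 guard cell markers with a 1-gene probe set, 2 reached the level limit: AT1G22690 was higher in sucrose (7.40 and 8.81, a difference of 1.42) and FMA, a transcription factor of the guard cell lineage, differed by 0.40. The other 3, all under 6 on both 24 h arrays, differed by -0.60 (SPCH), -0.21 (STOMAGEN) and 0.31 (MUTE), so the list held both signs.

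**Figure D3:**
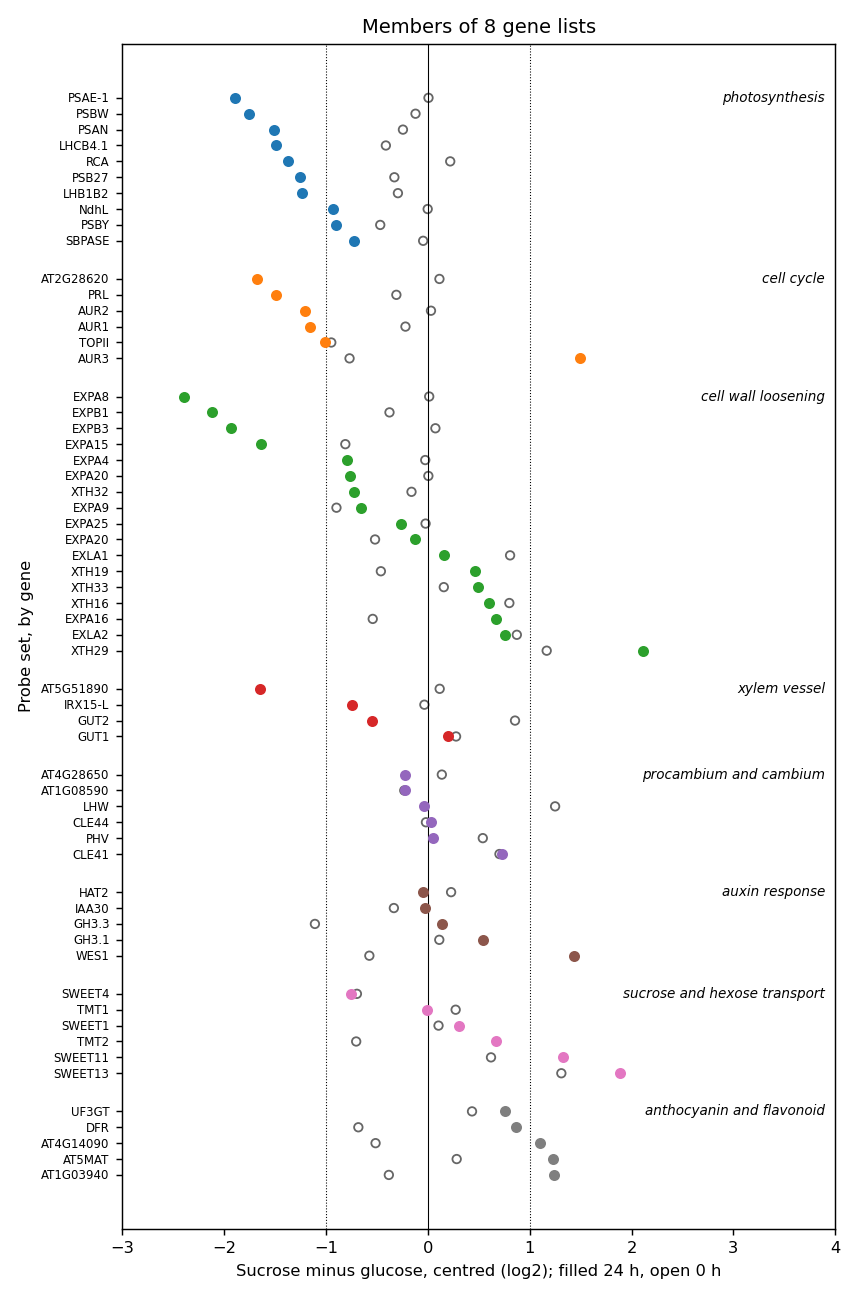
Sucrose minus glucose difference (log2, centred) of each member probe set in 8 gene lists; filled points are the 24 h pair, open points the 0 h pair, 1 array a side, and dotted lines mark 2-fold. All 10 photosynthesis points lie left of 0 at 24 h with open points between -0.47 and 0.22, the cell cycle list splits 5 to 1, and the procambium list lies around 0.

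Of 62 loci in the division list 6 had a 1-gene probe set, and these were mostly lower in sucrose at 24 h. Of 6 members 5 were at least 2-fold lower (background 3.98%) and 1 at least 2-fold higher (background 5.19%), and all 6 were at least 2-fold higher at 48 h than at 0 h in both sugars. PRL, the MCM7 subunit of the helicase that licenses DNA replication, read 6.88 in glucose and 6.55 in sucrose at 0 h, 9.82 and 8.33 at 24 h, then 9.02 and 9.83 at 48 h. The mitotic kinase AUR1 read 5.62 and 5.38, then 9.53 and 8.37, then 10.23 and 10.87. AUR2, its close relative, read 4.60 and 4.61, then 8.57 and 7.35, then 9.86 and 10.33. In all 3 the glucose array was the higher at 24 h and the sucrose array the higher at 48 h. Their 24 h differences were -1.49 for PRL, -1.16 for AUR1 and -1.21 for AUR2. AT2G28620, given by locus because the gene table holds no name for it, differed by -1.68, and TOPII, a DNA topoisomerase II, by -1.01, where its 0 h difference was already -0.95.

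AUR3, the Aurora kinase of another class, went the other way: it read 5.75 and 4.96 at 0 h, 7.26 and 8.75 at 24 h, then 8.02 and 9.04 at 48 h, a 24 h difference of 1.49. At 48 h all 6 division genes were above 0, between 0.42 for AUR2 and 0.97 for AUR3, and none of these reached 2-fold. Further division genes were read outside the list and were picked after their values were seen. BUBR1, a spindle checkpoint protein, read 8.34 and 7.13 at 24 h (-1.20), and KINESIN-12B, a motor protein of the structure that builds the new wall in dividing cells, 7.64 and 6.62 (-1.02). The checkpoint gene BUB3.2 was higher in sucrose, at 7.22 and 8.77 (1.55), with 7.40 and 8.91 at 48 h. CDC27a, of the complex that starts anaphase, was also higher, at 6.22 and 7.52 (1.31), with a 0 h difference of 1.11.

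Of 16 wall loosening genes 4 were at least 2-fold lower in sucrose (3.98% of all members) and 1 at least 2-fold higher (5.19%), and the list's median was -0.19. All 4 lower genes were expansins, proteins that loosen the contact between cellulose and other wall polymers. EXPA8 read 5.98 on both 0 h arrays, 9.07 in glucose and 6.67 in sucrose at 24 h, then 8.56 and 6.44 at 48 h, a 24 h difference of -2.39. EXPB1 read 6.69 and 6.29, then 7.82 and 5.69 (-2.12), then 8.35 and 5.81. In both, the sucrose arrays stayed near their 0 h level at 24 and 48 h, while the glucose arrays did not. EXPB3 read 5.18 and 5.24, then 10.00 and 8.06 (-1.93), then 8.60 and 8.99, so its sugar difference was 0.33 at 48 h. EXPA15 read 8.30 and 6.66 at 24 h (-1.64), with a 0 h difference of -0.81. Of 9 measured EXPA and EXPB genes 8 were below 0. Xyloglucan-remodelling XTH genes lay mostly above 0, in 4 of 5, with XTH29 at 4.64 and 6.75 (2.11, against 1.17 at 0 h) and XTH32 at -0.72. The expansin-like EXLA1 and EXLA2 differed by 0.16 and 0.76, and the difference between these families was not tested.

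Endoglucanases of glycosyl hydrolase family 9, which act on cellulose, were grouped after the data had been seen. Of 6 members 4 were at least 2-fold lower in sucrose, against 3.98% of all members. GH9B8 read 4.60 and 4.18 at 0 h, 8.89 and 6.21 at 24 h, then 9.15 and 8.86 at 48 h, a 24 h difference of -2.67. GH9B13 read 5.43 and 4.52, then 8.07 and 5.32 (-2.74), then 7.27 and 7.57. Both differed far less at 48 h, by -0.35 and 0.25. GH9C2 differed by -1.52 and GH9B6 by -1.09 at 24 h, GH9B7 by -0.15, and GH9A3 by 0.89.

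**Figure D4:**
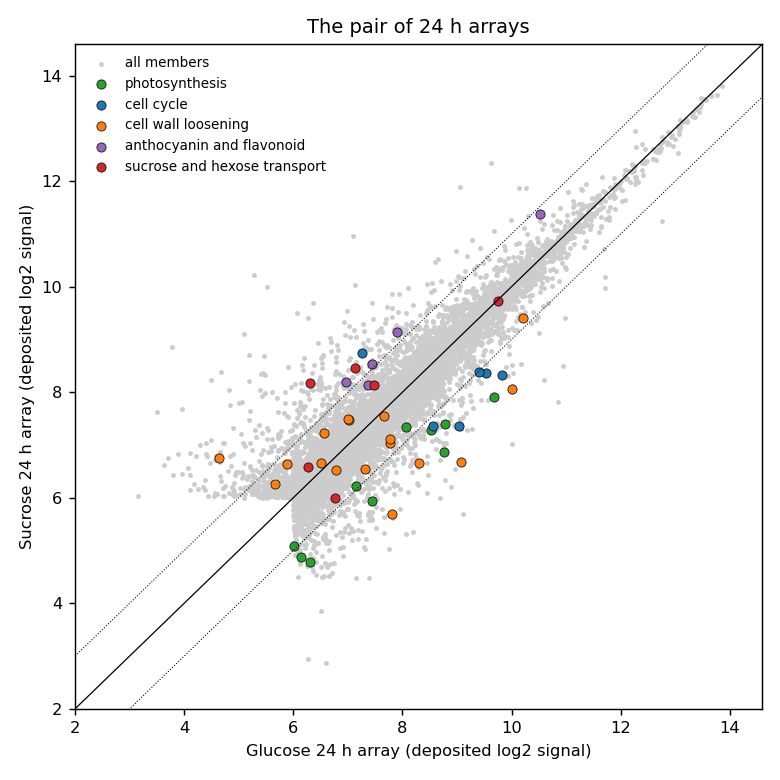
Deposited log2 signal on the sucrose 24 h array (vertical) against the glucose 24 h array (horizontal) for all member probe sets in grey and 5 gene lists in colour; the solid line marks equality, the dotted lines 2-fold. Photosynthesis and most cell cycle points lie below the line, anthocyanin points above it, and the grey cloud is widest at low signal (robust spread 0.535 in the 1947 members of lowest signal, 0.244 in the 1947 of highest).

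Of 4 xylem genes 1 was at least 2-fold lower in sucrose at 24 h, against 3.98% of all members, and 3 were under 2-fold apart. AT5G51890, listed by locus, read 8.16 and 8.26 at 0 h, 10.02 and 8.36 at 24 h, then 12.27 and 10.04 at 48 h. Its 24 h difference was -1.65, and the 48 h difference was -2.28. IRX15-L, a gene of xylan synthesis, read 9.11 and 9.06, then 8.77 and 8.02 (-0.74), then 10.50 and 8.50. GUT2 (also called IRX10), a xylan backbone enzyme, read 6.28 and 7.12, then 8.29 and 7.74 (-0.55), then 10.68 and 8.64, and its relative GUT1 differed by 0.20. The list's median was -0.64 at 24 h and -2.08 at 48 h, so the gap was wider in the later pair. Over the 5 list genes with a 1-gene probe set the summed linear signal was 1240 and 1364 at 0 h, 2163 and 1216 at 24 h, then 8496 and 2226 at 48 h. A pair of xylan acetylation genes of the TBL family, picked after their values were seen, had the same order of arrays. TBL33 read 7.29 and 5.07 at 24 h (-2.22), then 9.11 and 6.78 at 48 h, and TBL34 read 6.37 and 4.87 at 24 h, then 8.16 and 6.45 at 48 h. The other 11 measured TBL genes held none at least 2-fold lower and 1 higher, TBL26 at 1.41, whose 0 h difference was also 1.41.

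None of the 6 procambium and cambium genes was 2-fold apart at 24 h, and their median difference was -0.00. CLE44, a peptide that keeps procambium cells undifferentiated, read 6.42 and 6.38 at 0 h, 9.91 and 9.94 at 24 h, then 9.90 and 10.26 at 48 h. The vascular transcription factors LHW (9.12 and 9.08) and PHV (8.62 and 8.67) were alike in both sugars at 24 h. CLE41, which encodes the same peptide as CLE44, read 9.19 and 9.91 (0.73), with a 0 h difference of 0.70. The PXY-like receptor kinases AT4G28650 (PXL2) and AT1G08590 (PXL1) both differed by -0.22. The summed linear signal of 7 procambium genes was 778 and 1203 at 0 h, 2740 and 3093 at 24 h, then 2833 and 3741 at 48 h. Of 3 phloem genes OPS, a regulator of early phloem cells, read 7.30 and 6.57 (-0.72) and AT5G02460 read 7.71 and 7.01 (-0.70), and neither reached 2-fold. The last, SWEET11, was higher in sucrose and is described with the sugar transporters. Over the 5 phloem list genes with a 1-gene probe set, the summed linear signal was 1551 and 2367 at 0 h. It was 556 and 611 at 24 h, then 755 and 731 at 48 h. SWEET11, at 10.38 and 10.98 at 0 h, made up most of the 0 h sums, so their fall is largely that of 1 gene. OPS instead rose, from 4.57 and 4.64 at 0 h. The list genes under the level limit, CLE45 and CLE26, differed by -1.54 and 0.22 at 24 h.

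Among 6 sugar transport genes 2 were at least 2-fold higher in sucrose, against 5.19% of all members, and none lower. SWEET13, a sucrose exporter, read 5.80 in glucose and 7.09 in sucrose at 0 h, 6.30 and 8.18 at 24 h, then 5.92 and 8.59 at 48 h. Its difference was 1.88 at 24 h, 1.31 at 0 h and 2.61 at 48 h, so the sucrose array was the higher in all 3 pairs. SWEET11, the other sucrose exporter, read 10.38 and 10.98, then 7.13 and 8.46 (1.33), then 4.18 and 4.87. Its 0 h difference was 0.62. With the 0 h difference subtracted, SWEET13 stood at 0.57 and SWEET11 at 0.71, both short of 2-fold. The vacuolar carriers TMT2 (7.47 and 8.14) and TMT1 (9.75 and 9.73) differed by 0.67 and -0.01, SWEET1 by 0.31, and the hexose carrier SWEET4 (6.76 and 6.00) by -0.75.

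The 5 genes of sucrose and hexose metabolism held none that was 2-fold apart, with differences from -0.61 for AT1G66430 to 0.64 for AT5G51830 and -0.28 for ATSPS4F, a sucrose phosphate synthase. AT1G62660, at 0.53, was 1.70 apart at 0 h. In the starch list 1 of 6 was called: APL3, a large subunit of the enzyme that makes the sugar donor for starch, read 7.15 and 6.99 at 0 h, 8.19 and 9.65 at 24 h, then 6.87 and 7.88 at 48 h. Its 24 h difference of 1.46 stood against -0.15 at 0 h. SBE2.2, a starch branching enzyme, differed by 0.67, APL4 by 0.08, and the breakdown genes AMY1 (-0.49), DPE1 (-0.47) and PWD (-0.01) were at or below 0. The starvation list had 2 members, BZIP53 at 0.06 and MCCB at -0.18.

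Late anthocyanin genes were higher in sucrose. All 5 members of the list were above 0, with a median of 1.10, and 3 of 5 were at least 2-fold higher, against 5.19% of all members. DFR, the dihydroflavonol reductase at the entry to the late pathway, read 5.47 and 4.77 at 0 h, 10.52 and 11.38 at 24 h, then 7.11 and 10.28 at 48 h. AT5MAT, a malonyltransferase that decorates anthocyanins, read 5.22 and 5.49, then 6.96 and 8.19, then 4.95 and 7.08. The glucosyltransferase UF3GT read 3.53 and 3.95, then 7.37 and 8.13, then 4.86 and 6.85. In all 3 genes both sugars stood above 0 h at 24 h, and at 48 h the glucose array had come further down than the sucrose array. The 24 h differences were 1.24 for AT1G03940, 1.23 for AT5MAT, 1.10 for AT4G14090, 0.86 for DFR and 0.76 for UF3GT. The list's median at 48 h was 2.07. CHIL, an earlier flavonoid protein picked after its value was seen, read 6.67 and 7.75 at 24 h (1.09).

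Auxin response differed little. HAT2 read 11.37 and 11.32 at 24 h, IAA30 6.90 and 6.88, and the auxin-conjugating enzyme GH3.3 11.41 and 11.54, each from between 1.79 and 5.78 at 0 h. GH3.1, at 11.29 and 11.83, differed by 0.55. WES1 (GH3.5), another conjugating enzyme, read 7.45 and 6.86 at 0 h, 5.05 and 6.48 at 24 h (1.43), then 4.91 and 5.27 at 48 h, the single call among 5. The cytokinin response gene ARR15 differed by -0.09. RR16, of the same list but under the level limit, read 4.45 and 2.29 at 24 h (-2.15), then 7.79 and 4.94 at 48 h. Both of its 24 h values lay below the background probe set medians of 4.76 in glucose and 4.64 in sucrose.

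Of 3 cold and abscisic acid response genes 1 was called. COR15A, which protects chloroplast membranes in the cold, read 12.21 and 12.29 at 0 h, 7.70 and 9.38 at 24 h, then 4.90 and 5.40 at 48 h, a 24 h difference of 1.69. KIN2 read 8.74 and 8.34 at 24 h (-0.39) and COR47 6.37 and 5.44 (-0.92), so 1 was higher and the other 2 were below 0. The 4 reference genes lay between -0.29 and 0.15.

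UDP-glycosyltransferases, enzymes that attach sugars to hormones and specialised metabolites, held 3 genes at least 2-fold higher among 18 (5.19% of all members) and 1 lower (3.98%). UGT73C1 read 5.48 and 5.00 at 0 h, then stood at 5.62 in glucose at 24 h against a sucrose level 2.38 higher, and at 4.87 and 4.63 at 48 h. UGT76B1 read 3.92 and 3.97, then 6.13 and 8.18, then 5.55 and 5.30, and UGT76D1 4.41 and 3.77, then 4.19 and 6.25, then 3.97 and 3.84. In these 3 genes the sugars were at least 2-fold apart at 24 h alone, by 2.38, 2.05 and 2.07. UGT73C1 and UGT76D1 met the level limit through the sucrose array alone, so they could be members only by being higher there. The glucose 24 h signal of UGT76D1 lay below the 4.76 median of the background probe sets, so the size of its difference is uncertain. UGT72E1, which acts on lignin precursors, read 8.26 and 6.29 at 24 h (-1.97), then 7.87 and 7.48 at 48 h. Glutathione transferases went both ways, GSTU25 at 8.53 and 9.90 (1.37) and GSTU20 at 9.27 and 7.30 (-1.97), with GSTL3 at -0.23. The peroxidase PRX52 read 6.22 and 6.05, then 8.09 and 9.98 (1.89), then 7.40 and 7.97, and PRXR1 differed by 0.98. The other member, PRXIIF at 0.09, is a peroxiredoxin, and 2 of the 4 genes in the cytochrome P450 list, CYP59 and CYP71, are cyclophilins by the gene table. None of the 4 WRKY genes (-0.09 to 0.54) and none of the 4 in the cytochrome P450 list (-0.19 to 0.19) was called. The single members of further lists were NAC014 at 0.43, AT4G17260 (hypoxia list) at -0.13, HSP93-III (heat shock list) at -0.22 and UGT74B1 (glucosinolate list) at -0.12. Among the lists with no member were those of jasmonate and defence genes, ribosomal proteins, trehalose phosphate, MYB and ERF factors, and epidermis markers.

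Among genes whose 0 h difference was under 0.5, the highest in sucrose was AT4G30670, at 5.01 and 5.32 at 0 h, 5.28 in glucose and 10.22 in sucrose at 24 h, then 7.75 and 9.64 at 48 h, which is 30.8-fold at 24 h. CHX16, a cation/proton exchanger, read 5.08 and 5.31, then 4.68 and 8.38, then 4.79 and 5.80 (13.1-fold). Its glucose 24 h signal lay below the 4.76 median of the background probe sets on that array, so the size of the fold is uncertain, and with signals raised to a floor of 4.87 its difference was 3.49. AT1G65845 (11.5-fold) and AT3G57460 (10.2-fold) read 8.72 and 9.02 and 9.34 and 9.59 at 0 h. On the sucrose 24 h array they were still at 8.70 and 9.70, while glucose was at 5.18 and 6.35. AT5G42530 was of the same kind, at 12.71 and 12.99 at 0 h, 9.62 and 12.34 at 24 h, then 6.21 and 7.54 at 48 h. AT4G12500 had the opposite course, at 2.52 and 2.34 at 0 h and 9.06 and 11.88 at 24 h (2.83). DFO, a gene of meiotic DNA break formation, read 3.63 and 6.62 at 24 h, and differed by 1.73 with the floor. The other 8 of the 15 highest were AT1G51830, AT2G38830, AT1G13480, AT4G26020, AT3G28510, AT4G33420, AT3G59450 and AT3G21080, with 24 h differences from 2.75 to 3.44. Whatever the 0 h value, AT1G65481 (5.09, with 1.02 at 0 h) and AT3G46280 (4.46, with 1.12 at 0 h) were also among the 3 highest.

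The lowest in sucrose among genes under 0.5 apart at 0 h was LCR25, a small cysteine-rich protein, at 6.45 and 6.18 at 0 h, 9.11 and 5.69 at 24 h, then 9.54 and 10.72 at 48 h, which is 10.7-fold lower at 24 h. CaS, a calcium-sensing protein of the chloroplast thylakoid, read 9.08 and 9.09, then 7.39 and 4.47, then 6.65 and 3.94 (7.54-fold lower at 24 h, or -2.49 with the same floor). Its order of arrays was that of the photosynthesis genes. PYK10, a beta-glucosidase stored in ER bodies, read 5.18 and 5.46, then 7.15 and 4.48 (-2.67), then 7.75 and 6.90. AT4G20320 (10.85 and 7.81 at 24 h) and AT5G26330 (10.00 and 7.01) differed by -3.03 and -2.99. AT1G03820 read 2.63 and 2.31 at 0 h, 8.19 and 5.35 at 24 h, then 8.60 and 7.98 at 48 h, so sucrose came close to glucose in the later pair. GH9B8 and EXPA8, described above, were among the 15 lowest, together with AT2G28010, AT4G24780, AT3G52900, AT1G79620, AT5G46115, AT5G07800 and AT3G44960, from -2.65 to -2.20. AT4G28790, at 6.59 and 2.86 at 24 h (-3.72), had a 0 h difference of -0.90 and one of -4.52 at 48 h, and AT2G05420 differed by -3.32.

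**Figure D5:**
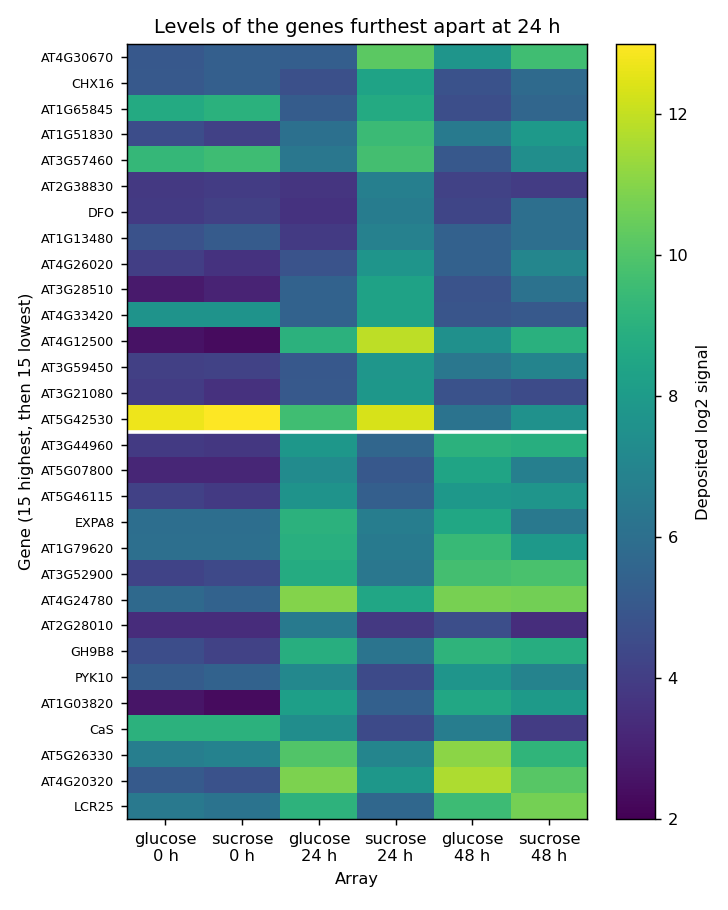
Deposited log2 signal (colour) on the 6 arrays for the 15 highest genes (above the white line) and the 15 lowest genes (below it) at 24 h among those under 0.5 apart at 0 h. In both blocks the pair of 0 h columns is alike, and the contrast lies between the glucose and sucrose 24 h columns, as in CHX16 (4.68 and 8.38) and LCR25 (9.11 and 5.69). Both traits follow from how the genes were chosen.

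Among 1023 members whose gene carries a symbol, 62 were at least 2-fold higher (6.06%) and 53 lower (5.18%), and the following were picked from them after their values were seen. FAMT read 11.55 and 11.56 at 0 h, 5.49 and 7.98 at 24 h, then 3.81 and 5.52 at 48 h. ECS1 read 12.05 and 12.41, then 7.28 and 9.29 (2.02), then 4.58 and 4.62. Both were lower at each later time, and less so on the sucrose 24 h array. Glutamate receptor-like channels had 3 of 6 members called, GLR2.7 (1.15), GLR1.4 (1.24) and ATGLR1.2 (1.99), and none lower. The methionine sulfoxide reductases MSRB8 (6.45 and 8.93) and MSRB9 (7.13 and 10.02) differed by 2.48 and 2.90, and MSRB9 was 2.83 apart at 0 h as well. The calmodulin-like genes CML41 and CML42 differed by 3.15 and 1.21, with 1.36 and 0.74 at 0 h. Among lower calls, HEME2 of tetrapyrrole synthesis read 6.86 and 5.36, and ATPC1, a subunit of the chloroplast ATP synthase, 7.30 and 5.93 (-1.37). Among higher calls, PIFI, also a chloroplast protein, read 6.92 and 8.12 (1.20). ACLA-2, a subunit of ATP citrate lyase, read 6.63 and 5.14 at 24 h (-1.49), then 8.85 and 6.81 at 48 h.

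Low signal limits part of these calls. On the glucose array 166 of the 404 higher calls were under 6, and on the sucrose array 133 of the 310 lower calls. Such calls were members only through the array where they were high. The background probe sets had medians of 4.76 in glucose and 4.64 in sucrose, so the size of those differences is less certain. Background sets of high GC count lay above 6, up to 8.50 in glucose and 8.15 in sucrose. With a level of 6 or more required on both 24 h arrays, 238 higher and 177 lower calls were left, and the photosynthesis list held 4 rather than 7.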

How the data were processed

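The 6 arrays, 1 for each sugar and time, measured RNA that the labels' protocols describe as amplified and biotin-labelled before hybridisation. The authors' deposited values are log2 signals per probe set, made with GCOS per the submitters' processing notes. How background was corrected and arrays were normalized is not given here. That the logarithm has base 2 follows from the largest value, 14.2, which as a natural log would exceed a scanner's range. Of 38408 rows, 98 control rows were set aside. The platform's probe table gave 16722 probe sets with 1 gene, 759 with several and 20829 not listed, which stay unnamed. Loci and symbols (RefSeq gene table, TAIR10.1) were matched for 16670 of the 1-gene probe sets.

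Each array was centred on its median over 1-gene probe sets (Python 3.11.15, pandas 2.3.3, numpy 2.4.6). Members had a log2 signal of 6 or more on at least 1 24 h array, and a call was a difference of 2-fold or more. For a gene with several probe sets, the one of highest mean 24 h signal stood for it: 54 genes had several, whose differences spanned a median of 0.22, with 9 genes over 1. Named genes were the 15 highest and 15 lowest with a 0 h difference under 0.5 in size, the 3 highest and lowest whatever the 0 h difference, the 4 furthest from 0 in each of 36 gene lists, and all members of 6 lists on sugar, anthocyanin and vascular genes. Other names were picked after their values were seen, as the text says. Members, lists and rules were chosen with earlier results of these data known. With 1 array a group no test was made. The counting step was tested on simulated data. The planned description of promoter motifs was not run.

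Alternatives were other scalings, level limits, fold limits, a floor, treatment of the 0 h difference and probe sets per gene. Close gene copies can share signal on an array, and no probe sequences were used to check for it.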

Additional observations from a re-analysis of the deposited data

Results flagged for a closer look

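LCR25 was lower in sucrose at 24 h with a difference of -3.41 on the log2 scale, and higher in sucrose at 48 h, by 1.13. The sugar difference thus had opposite signs at the 2 times, past 2-fold in both pairs, and the difference between the times was not tested, since each has 1 array a side. In the 0 h pair it differed by -0.25.

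AT3G16660, which was looked up after its values were seen because it had the widest 0 h difference of all members, changed sides between 0 and 24 h. It read 9.84 in glucose and 4.70 in sucrose at 0 h (-5.12), 4.50 and 8.23 at 24 h (3.74), then 5.02 and 6.08 at 48 h (1.01). The difference between the times was not tested.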

How the results depend on the processing

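Subtracting the 0 h difference turned the sign of 25 of the 404 higher calls and of 2 of the 310 lower calls, AT1G51920 among them. No call turned sign under the other scalings or the floor, and no gene named by the fixed rule did so under those scalings or the floor. Subtracting the 0 h difference did turn the sign of some genes named by that rule. Among them were AT1G62660 (0.53 at 24 h and 1.70 at 0 h) and BZIP53 (0.06 and 0.67). No paired analysis was possible because each sugar and time had 1 array and the labels give no replicate numbers. Against 404 higher and 310 lower calls, a level of 6 or more on both 24 h arrays gave 238 and 177, a limit of 1.5-fold gave 883 and 760, and one of 3-fold gave 164 and 103, as follows from testing fewer probe sets or from the limit itself. Subtracting the 0 h difference gave 383 higher and 521 lower calls, which moves the share of higher among all calls from 56.6% to 42.4%, and shifts the median of all members by -0.10. Of the main calls, 237 higher and 232 lower were shared with it. No centring, trimmed-mean scaling, quantile normalization, lowess, a floor at 4.87, a level limit of 5 or 7, leaving out members 2-fold apart at 0 h and 1 probe set per gene each kept both counts within 1.5 times.

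The readings on other arrays were alternatives chosen after seeing the data. The share of higher calls also 2-fold higher at 48 h (30.4%) was 20.2% under lowess, 26% with the floor, 20.8% at 1.5-fold and 42.7% at 3-fold; the cause was not tested. The share of lower calls also lower at 48 h (25.5%) was 19.8% with 6 or more on both arrays, 18.8% at 1.5-fold, 43.7% at 3-fold and 17.9% with the 0 h difference subtracted. The share of higher calls lower at 48 h than at 0 h in glucose (50.7%) was 43.6% at 1.5-fold and 45.1% at 3-fold. The share of lower calls higher at 48 h than at 0 h in glucose (65.2%) was 51.3% at 1.5-fold, 76.7% at 3-fold and 59.7% with the 0 h difference subtracted. Of the 116 named genes 40 moved by more than the 0 h spread of 0.390 when the 0 h difference was subtracted and 10 with the floor, and the division genes at least 2-fold lower went from 5 to 3 under the former.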

Other observations

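Neighbouring genes were called together in 53 runs of 120 genes, 34 runs higher and 19 lower. A run joined called genes at most 5 loci apart in the gene table, and the runs were looked for after the data had been seen. Of 7707 member genes 400 were called higher and 299 lower. How many runs the same number of calls would give if placed at random was not computed, so the count does not show clustering by position. The pair of longest runs held 6 called genes each. In that on chromosome 1, all 6 members between AT1G51820 and AT1G51920 were higher in sucrose, by 2.32, 3.44, 3.87, 4.13, 3.23 and 1.08 in order. AT1G51820 (4.72 in glucose and 7.04 in sucrose at 24 h), AT1G51850 and AT1G51890 (4.82 and 8.05) met the level limit through the sucrose array alone. They could be members only by being higher in sucrose, so the shared direction of all 6 follows in part from the limit. AT1G51850 read 4.87 in glucose and 6.18 in sucrose at 0 h, 3.50 and 7.63 at 24 h, then 2.88 and 5.00 at 48 h. AT1G51840 read 4.48 and 3.94, then 7.10 and 10.97, then 7.18 and 9.29, so these neighbours differed in their course over the culture while the sucrose array was the higher in both at 24 h. AT1G51820, AT1G51850 and AT1G51920 were already more than 1 apart at 0 h (1.58, 1.33 and 1.57), the last by more than at 24 h. Of 14 protein-coding genes in that stretch, 13 had a 1-gene probe set and 6 were members.

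On chromosome 5, 6 of 7 members between AT5G44565 and AT5G44580 were higher, from 1.20 to 1.69, and AT5G44572 differed by -0.40. AT5G44574 (5.71 in glucose and 6.91 in sucrose at 24 h) met the level limit through the sucrose array alone. AT5G44575 read 6.01 and 6.10 at 0 h, 8.99 and 10.67 at 24 h, then 6.76 and 6.71 at 48 h, and AT5G44580 read 11.12 and 11.02, then 7.80 and 9.43, then 4.53 and 6.79. A shared signal between close copies of a gene was not tested.

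Of 28 symbol families with at least 5 member genes, 4 lay wholly below 0 without a call: 7 RPS genes (-0.50 to -0.05), 6 RPL genes (-0.31 to -0.05), 6 BGLU genes (-0.99 to -0.19) and 5 MED genes (-0.36 to -0.12). Families were formed from the letters of the symbol, so PYK10, the beta-glucosidase called lower at -2.67, is not among the 6 BGLU genes. All 9 bZIP genes were above 0 (0.06 to 0.91), again with none at 2-fold. Of 13 SEC, 12 IQD, 12 UBP and 7 NRPB genes none was called. Of all members 5.19% were called higher and 3.98% lower, so no call in families this small lies near those shares. The families were described after the values were seen.

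Of the 2595 members lowest at 0 h, 7.44% were higher and 7.82% lower in sucrose at 24 h. The shares were 3.62% and 1.81% of the 2595 members in the middle, and 4.51% and 2.31% of the 2596 highest. A member could meet the level limit on either 24 h array alone, and spread was wider at low signal. Both can add calls among members low at 0 h, and their part in these shares was not tested.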
